A study of Homo sapiens with 30 samples.

Results

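VCaP cells exposed to 0.06 nM R1881 were compared with VCaP cells exposed to vehicle, using 6 of the 30 chromatin accessibility libraries of the series, 3 in each group. Members were taken by their labels: cell line VCaP, a 24-hour exposure, and replicate numbers 1, 2 and 4 in both groups. Cells of both groups had been seeded 48 hours before treatment in DMEM whose serum (8%) had been stripped of most steroids with charcoal. The treated group then received 0.06 nM R1881, a low dose in this study, and the vehicle group received vehicle in the same serum. VCaP is an established human prostate cancer cell line known to carry a fusion of the androgen-driven TMPRSS2 gene with ERG, an ETS transcription factor. The labels do not say that the replicates were separate cultures, so the p-values measure a spread between libraries, which may be technical. For the limma tests in VCaP, that spread was estimated within the 5 dose groups of all 15 VCaP libraries, beyond the 6 compared. The study's stated interest is how low and high androgen doses reshape chromatin in prostate cancer cells.

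R1881 is a synthetic androgen that binds a nuclear hormone receptor. The bound receptor enters the nucleus and attaches to androgen response elements, where forkhead factors such as FOXA1 often open the chromatin and coactivators are recruited. Known targets in prostate cells include KLK3 (prostate-specific antigen), KLK2, TMPRSS2 and FKBP5. ATAC-seq, the assay used, marks open DNA by inserting sequencing adapters with the Tn5 transposase, and it measures accessibility rather than binding or transcription.

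Few of the regions that differed lay at a start site. RefSeq promoters held the centre of a called region in 11 cases, 9 higher and 2 lower, counting regions called both by the peak covering the centre and by a summit near it. The letters of 3 are shown because their motifs bear on androgen response elements and on forkhead and ETS factors, and because no sequence outside promoters was used here. Each is 300 bases of GRCh38.p14 from RefSeq, 250 before and 50 after the start, 5′ to 3′ on the gene's strand. Capitals mark AGAACA (the core of an androgen response element), TGTTTAC (forkhead) or CCGGAA (ETS) on either strand, which did not overlap each other here.
UXS1, minus strand, chr2:106138832-106139131, region higher at 0.06 nM: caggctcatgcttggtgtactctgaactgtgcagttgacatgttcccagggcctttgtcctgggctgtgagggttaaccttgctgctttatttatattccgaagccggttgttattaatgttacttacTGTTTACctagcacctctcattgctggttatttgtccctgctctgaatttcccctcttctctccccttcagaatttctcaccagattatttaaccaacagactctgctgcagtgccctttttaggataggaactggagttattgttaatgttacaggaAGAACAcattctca
LOC124903164, minus strand, chr13:42747407-42747706, region higher at 0.06 nM: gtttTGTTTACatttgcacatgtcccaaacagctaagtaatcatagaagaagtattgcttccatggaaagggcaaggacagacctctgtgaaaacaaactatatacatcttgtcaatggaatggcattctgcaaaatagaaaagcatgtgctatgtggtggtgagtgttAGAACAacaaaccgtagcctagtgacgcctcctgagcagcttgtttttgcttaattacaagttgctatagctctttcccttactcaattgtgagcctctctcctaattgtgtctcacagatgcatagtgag
SDHAF3, plus strand, chr7:97117448-97117747, region lower at 0.06 nM: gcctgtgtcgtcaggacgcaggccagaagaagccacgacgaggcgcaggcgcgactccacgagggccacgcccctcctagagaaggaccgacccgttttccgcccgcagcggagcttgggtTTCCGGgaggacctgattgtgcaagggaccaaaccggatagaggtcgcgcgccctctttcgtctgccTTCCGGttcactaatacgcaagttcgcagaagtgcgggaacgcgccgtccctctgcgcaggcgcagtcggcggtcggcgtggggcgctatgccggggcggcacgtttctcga

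These 3 names were chosen after their values were seen. Among the 11746 RefSeq promoters at tested regions, AGAACA was in 8.13%, TGTTTAC in 2.59% and CCGGAA in 30.5%, and among all 34961 in 14.8, 3.42 and 17.3%. Of the 9 higher promoters 2 held AGAACA, 2 TGTTTAC and 0 CCGGAA, and of the 2 lower ones 0, 0 and 1 did. The full palindromic androgen response element was in 1 of the 34961 and in none of the 11. A match is a description of the letters and not a bound site. The region at the UXS1 promoter ranked at 71.4, 79.0 and 71.1 in the 0.06 nM libraries, against 39.7, 0 and 0 in the vehicle libraries, on the percentile scale defined in the next paragraph. The LOC124903164 region ranked at 90.4, 91.4 and 94.9 at 0.06 nM, against 36.3, 28.4 and 39.0 with vehicle. The groups did not overlap at either, and the differences were 60.6 (SE 12.6, limma adjusted p = 0.0277) and 57.7 points (SE 6.57, limma adjusted p = 0.000463). At SDHAF3, an assembly factor of succinate dehydrogenase, the ranks were 81.3, 80.0 and 88.7 at 0.06 nM and 95.5, 95.2 and 92.7 with vehicle, so a strong peak was listed in all 6 libraries (difference −11.1, SE 2.32, limma adjusted p = 0.0282). The LOC124903164 region kept its call when any of the 6 libraries was left out, UXS1 did so only without vehicle replicate 1, and SDHAF3 only without 0.06 nM replicate 4 or vehicle replicate 4. Without vehicle replicates 1 and 2, SDHAF3 was not called (adjusted p = 0.389).

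Each deposited list holds 1 library's peaks, with no read counts. All lists were shortened to the 104726 entries of highest −log10 p, the length of the shortest of the 6 on chromosomes 1 to 22 and X. Every entry was then ranked within its library from 0 to 100, and 0 stands for a region where no entry was kept. A region is a peak summit of any of the 15 VCaP libraries with the 250 bp on each side. Its value is the rank of the best peak covering its centre base, and a difference is in percentile points. Of 303401 regions, 124460 were listed in 3 or more of the 15 VCaP libraries and were tested, and the others were not analysed further. A rank gives a peak's place within its library, so it does not measure absolute signal, and a region at 0 may hold signal below the end of the list. Read numbers are not in the lists, so depth is known only in relative terms.

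The 6 libraries differed in depth. Background pileup, the recovered count of overlapping fragments at the emptiest listed sites, was 2.51, 2.05 and 2.69 in the 0.06 nM libraries, and 1.14, 1.09 and 2.11 in vehicle replicates 1, 2 and 4. Only vehicle replicate 4 was as deep as a 0.06 nM library (exact two-sided permutation test of the means, p = 0.2, where 3 against 3 cannot go below 0.1). Lists held 142982, 170787 and 138506 entries at 0.06 nM, against 105034, 117798 and 132806 with vehicle. Spearman's rho of the ranks had a median of 0.787 within 0.06 nM, 0.70 within vehicle and 0.710 between the groups. A listed peak within 1 kb of a gene end was present for 9 of 10 luminal prostate markers and 18 of 18 housekeeping genes in each of the 6 libraries, with KLK3 the missing luminal gene. The same was true of 4 to 5 of 9 basal, 3 to 4 of 10 stromal, 1 to 3 of 11 immune and 7 to 9 of 10 neuroendocrine markers. TP63, KRT14, PTPRC, CD3D, COL1A1, COL3A1 and DCN had none in any of the 6.

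More regions were called higher than lower at 0.06 nM. In limma's moderated test, 1165 of the 124460 regions were higher than with vehicle (0.936%) and 204 were lower (0.164%), together 1369 (1.1%), at a Benjamini-Hochberg adjusted p under 0.05. Rises had a median difference of 61.7 points and falls one of −50.0, against 0.30 over all regions tested. Every called region had its 3 libraries of one group above the 3 of the other, a separation that 10193 tested regions showed upward (8.19%) and 7435 downward (5.97%). All 1165 rises had a listed peak in each 0.06 nM library, and 475 of them had none in any vehicle library, 194 had one in 1, 135 in 2 and 361 in 3. Of the 204 falls, 120 had no listed peak in any 0.06 nM library. A peak whose own summit lay within 250 bp gave the same call at 1024 of the 1141 rises and 154 of the 194 falls that could be tested that way. Values were shared with a called neighbour at 11 rises and 1 fall, where a wide peak covered both centres.

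The counts changed with the libraries that entered the fit and with background pileup as a covariate. Leaving out the shallow vehicle replicates 1 and 2 left vehicle replicate 4 alone. The median difference was then 61.0 points at the 1165 rises and −43.4 at the 204 falls. No direction could change, because the groups did not overlap at any of the 1369 regions. With each library's background pileup as a covariate, 151 regions were higher and 2 lower, while at an unadjusted p under 0.05 the order turned, with 4138 higher and 8480 lower, against 9491 and 5833 without the covariate. Fitted to the 6 libraries alone, limma called 0 regions either way, with 11844 under an unadjusted p of 0.05. Leaving out 0.06 nM replicate 1, 2 or 4 left 238, 581 or 241 rises and 13, 23 or 10 falls. Leaving out vehicle replicate 1, 2 or 4 left 1041, 804 or 1420 rises and 178, 374 or 629 falls.

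**Figure D1:**
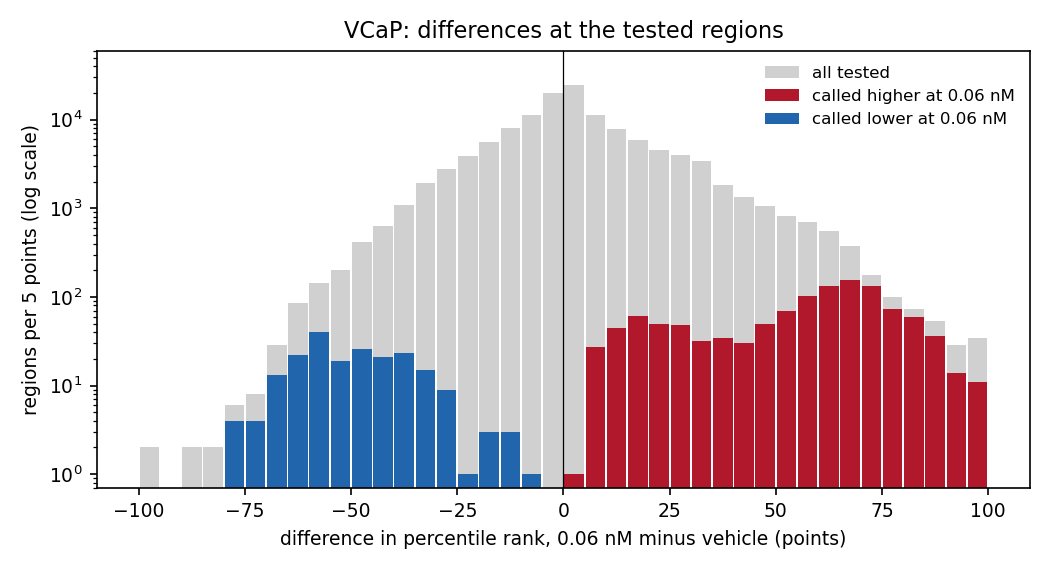
Number of regions (log scale) by difference in percentile rank, 0.06 nM minus vehicle, in bins of 5 points, for all 124460 tested regions (grey), the 1165 called higher (red) and the 204 called lower (blue). Most tested regions lie near 0, and the called rises gather above 50 points.

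Called regions lay mostly away from gene ends. Of the rises 4.46% were within 1 kb of either end of a protein-coding gene and of the falls 2.45%, against 17.7% of the regions tested. Inside a gene body lay 50.8% of the rises, 43.1% of the falls and 52.9% of the tested regions. No protein-coding gene was within 100 kb of 19.4% of rises and 28.9% of falls, against 13.5% of tested regions. The median distance to a gene end was 41.1 kb for rises, 60.05 kb for falls and 22.2 kb for all tested regions. By chromosome, the share called higher ran from 0.201% on chromosome 19 to 1.46% on chromosome 8. The nearest gene of a region is a neighbour and is not shown to be controlled from it, and the annotation used gave gene bodies without exons or introns.

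The largest rises given here lie within 100 kb of a gene and were also called by summit. Larger ones called only by the covering peak, such as SYVN1 (99.6 points) and ZNF777 (97.2), are left out. At those given, DNA with no or a weak listed peak with vehicle ranked among the stronger peaks of each 0.06 nM library. Inside ILRUN, a regulator of inflammation and lipid metabolism (chr6:34595695-34596195), the ranks were 95.2, 98.0 and 96.6 at 0.06 nM, against 17.5, 0 and 0 with vehicle. The recovered pileups there were 230, 114 and 194 fragments at 0.06 nM, against 22, 0 and 0. The mean was 96.6 ± 1.40 at 0.06 nM and 5.82 ± 10.1 with vehicle (SD, n = 3 each; difference 90.8, SE 5.72, limma adjusted p = 4.6e-07). A region 60.4 kb from LLPH (chr12:66055893-66056393) ranked at 94.0, 94.4 and 92.4 at 0.06 nM and was listed in no vehicle library. Its difference of 93.6 points was the largest of the 12 named by rule (SE 11.3, limma adjusted p = 0.000726). Within SPOCK1, which encodes a secreted proteoglycan (chr5:137080175-137080675), the values were 90.4, 86.5 and 93.0 at 0.06 nM and 0 in all 3 vehicle libraries (difference 90.0, SE 6.02, limma adjusted p = 9.97e-07). Outside ZDHHC21, a palmitoyltransferase gene, by 7.28 kb (chr9:14700460-14700960), they were 93.7, 93.3 and 91.1, against 0, 0 and 6.46 with vehicle (difference 90.5, SE 7.28, limma adjusted p = 1.05e-05).

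Among the other 8 large rises, mean ranks at 0.06 nM ran between 87.6 and 91.0, and the vehicle mean was 0 at 7 of them. They lay in SLC9A9, an endosomal sodium-proton exchanger (chr3:143286333-143286833, 89.3 against 0), and 2.70 kb from TRIM52 (chr5:181263596-181264096, 90.2 against 0). Others were in KIF24, a kinesin (chr9:34275661-34276161, 88.4 against 0), and in RAET1E, a ligand of an activating receptor of natural killer cells (chr6:149896353-149896853, 87.6 against 0). A region 13.0 kb from CHL1, a neural adhesion molecule (chr3:183560-184060), had 87.8 against 0, and one in the interferon and interleukin receptor readthrough IFNAR2-IL10RB (chr21:33292706-33293206) had 89.0 against 0. On chromosome 8, a region in the transcriptional repressor gene ZHX2 had 90.4 against 0, and one 28.2 kb from LRP12, a lipoprotein receptor relative, had 91.0 against 1.11. Without vehicle replicates 1 and 2, which leaves vehicle replicate 4 alone, the direction of the 12 could not change, because their groups did not overlap. With the background pileup as a covariate 5 of the 12 were called, namely ILRUN, SPOCK1, SLC9A9, ZDHHC21 and TRIM52. IFNAR2-IL10RB also lost its call without 0.06 nM replicate 1 or 4, and the other 11 kept theirs when any of the 6 libraries was left out.

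**Figure D2:**
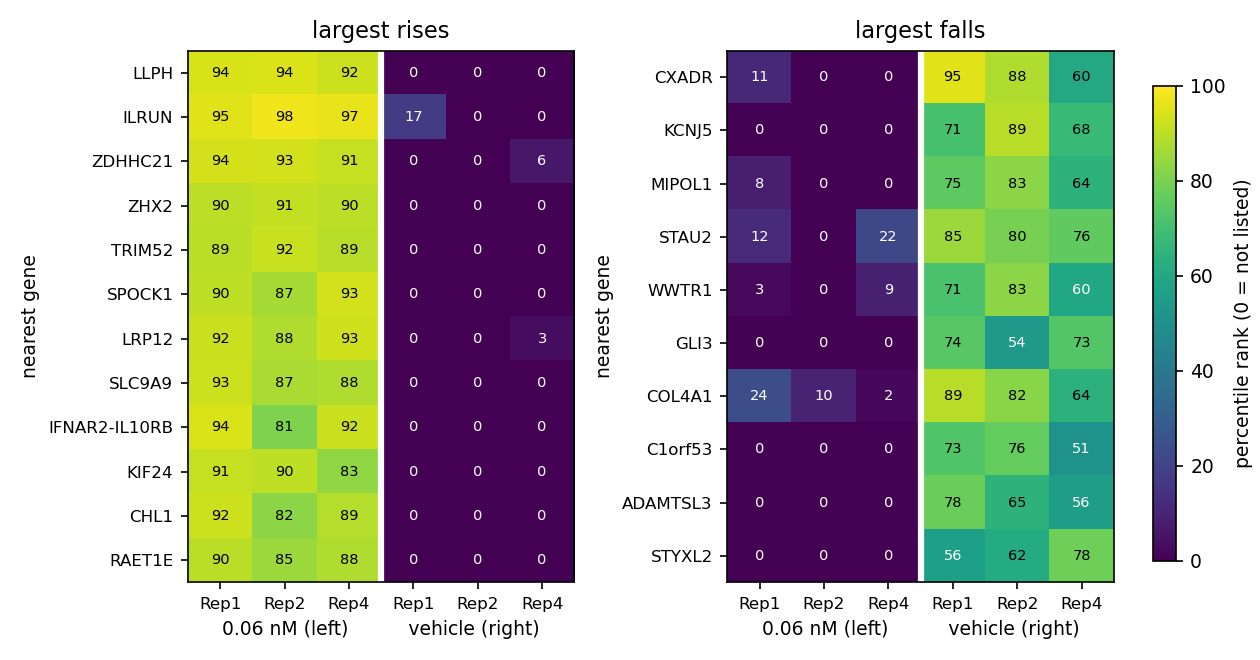
Percentile rank in each of the 6 libraries at the 12 largest rises and 10 largest falls named by rule, with 0.06 nM left of vehicle and 0 meaning not listed. The rule takes regions near a gene that were also called by summit. At the rises all 0.06 nM values are above 80 and vehicle values are at most 17.5, and at the falls 0.06 nM values are at most 23.6 and vehicle values above 50.

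The 10 largest falls within 100 kb of a gene that were also called by summit were at peaks ranked between 50.8 and 95.4 with vehicle. Of the 10, 5 were listed in no 0.06 nM library. Inside CXADR, a junctional adhesion molecule that serves as a virus receptor (chr21:17550712-17551212), ranks were 11.2, 0 and 0 at 0.06 nM, against 95.4, 88.1 and 60.2 with vehicle (difference −77.5, SE 16.6, limma adjusted p = 0.0321). A region 6.47 kb from KCNJ5, a potassium channel gene (chr11:128884634-128885134), was not listed at 0.06 nM and had 70.8, 89.1 and 67.7 with vehicle (difference −75.9, SE 14.6, limma adjusted p = 0.0183). Within MIPOL1 (chr14:37278640-37279140) the values were 8.44, 0 and 0, against 75.1, 82.7 and 64.5 with vehicle (difference −71.3, SE 13.4, limma adjusted p = 0.0165). The groups were far apart at all 3. Regions inside WWTR1, the Hippo pathway coactivator TAZ (chr3:149643031-149643531, mean 3.87 against 71.2), and GLI3, a Hedgehog pathway transcription factor (chr7:42167516-42168016, 0 against 66.9), also fell. So did regions in COL4A1, a basement membrane collagen (chr13:110274729-110275229, 11.8 against 78.5), ADAMTSL3 (chr15:83658615-83659115, 0 against 66.1) and, on chromosome 8, the RNA-binding protein gene STAU2 (11.3 against 80.0). The last 2 were 36.5 kb from C1orf53 (chr1:197865920-197866420, 0 against 66.6) and 37.1 kb from STYXL2 (chr1:167165987-167166487, 0 against 65.3).

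The recovered pileups at CXADR were 28, 0 and 0 fragments at 0.06 nM and 80, 21 and 30 with vehicle. COL4A1 was still listed in all 3 libraries at 0.06 nM, with pileups of 40, 24 and 28, against 63, 26 and 44. Without vehicle replicates 1 and 2, which leaves vehicle replicate 4 alone, the direction of the 10 falls could not change, because their groups did not overlap. None of the 10 was called without 0.06 nM replicate 1 or with background pileup as a covariate. Without 0.06 nM replicate 2 the calls at ADAMTSL3 and GLI3 were left, and without 0.06 nM replicate 4 that at STAU2. Leaving out vehicle replicate 1 or 2 ended the calls at CXADR, WWTR1, COL4A1 and C1orf53, and leaving out replicate 2 also that at KCNJ5.

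Genes known to be induced by androgen had rises nearby. Of the 57 androgen-induced genes tested, 13 had a region called higher (22.8%) and 2 one called lower (3.51%), beside 855 (4.9%) and 141 (0.807%) of the 17466 genes with a tested region. These 57 genes held 731 tested regions, of which 14 (1.92%) were called higher, and their median difference was 1.88 points against 0.30 over all regions. Among the 13 were ELL2, FKBP5, IQGAP2, KLK2, LIFR, NDRG1, STEAP1, STEAP4, TPD52, TRPM8, TUBA3D and ZBTB16. Called by summit as well were 11, and KLK2 and IQGAP2 were not. Without vehicle replicates 1 and 2, 8 of the 13 still had their rise called, and with background pileup as a covariate 2 did, ZBTB16 among them, beside 316 and 83 of the 855 genes with a rise.

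Of these, the kallikrein region already had a strong peak with vehicle. At KLK2, a secreted protease close to KLK3 in sequence and position (chr19:50879918-50880418, inside the gene), ranks were 97.6, 98.5 and 96.2 at 0.06 nM, against 91.7, 88.3 and 89.6 with vehicle. The difference was 7.59 points (SE 1.42, limma adjusted p = 0.0159), while a peak with its summit within 250 bp gave 7.25 and an adjusted p of 0.959, and the ranking by fold enrichment gave −6.18. The tested KLK3 region of smallest p, 4.64 kb from the gene (chr19:50850020-50850520), had 93.2, 89.1 and 96.9 at 0.06 nM and 0 in every vehicle library, yet was not called (SE 29.7, limma adjusted p = 0.177). None of the 6 libraries listed a summit within 250 bp of its centre, so these values came from wide peaks with summits elsewhere. KLK2 was not called when any of the 0.06 nM libraries was left out.

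FKBP5 encodes a co-chaperone that holds steroid receptors in their unbound state. A region inside it (chr6:35722369-35722869) was at 77.7, 57.8 and 83.0 at 0.06 nM and was not listed with vehicle, with pileups of 99, 27 and 92 fragments at 0.06 nM. It was called at a difference of 72.9 points (SE 15.9, limma adjusted p = 0.0354), and without vehicle replicates 1 and 2 the adjusted p was 0.267. Near TRPM8, a cold-sensing cation channel, the region 0.965 kb outside the gene (chr2:234020237-234020737) had 88.7, 87.9 and 88.4 against 65.1, 71.2 and 65.7 with vehicle (difference 21.0, SE 3.5, limma adjusted p = 0.00799). NDRG1, a differentiation and stress response gene on chromosome 8, had a call each way. The rise, 25.1 kb outside the gene, was 77.8, 79.0 and 86.5 at 0.06 nM, against 47.3, 37.4 and 40.6. The fall, inside the gene, was 87.8, 86.3 and 87.5 at 0.06 nM, against 99.2, 98.0 and 96.8, so both sites had listed peaks in all 6 libraries. FKBP5 lost its call when any of the 6 libraries was left out, TRPM8 and the NDRG1 fall without 0.06 nM replicate 1 or 4, and the NDRG1 rise without 0.06 nM replicate 4.

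ZBTB16, a zinc finger transcriptional repressor, had 2 regions called higher inside the gene. One (chr11:114129907-114130407) was at 92.6, 92.3 and 94.3 at 0.06 nM and at 78.5, 83.1 and 62.4 with vehicle (difference 18.4, SE 3.81, limma adjusted p = 0.0276), and its own summit gave the same difference. It lost its call when any of the 0.06 nM libraries was left out. The other (chr11:114178663-114179163) had 97.6, 94.4 and 96.3, against 0 in each vehicle library. There the covering peaks had summits elsewhere, and with any overlap of 1 bp counted the difference was −1.96 points, so it stands at the edge of a peak present in both groups.

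The remaining androgen-induced genes had different levels with vehicle. At ELL2, an elongation factor (chr5:95857204-95857704, 27.6 kb away), the mean was 96.2 ± 0.842 at 0.06 nM and 49.7 ± 13.5 with vehicle. LIFR, a cytokine receptor gene (chr5:38666846-38667346, 58.7 kb away), had 83.1 ± 1.36 and 43.7 ± 7.62. TUBA3D, an alpha tubulin (chr2:131478860-131479360, inside), had 83.6 ± 5.90 and 23.6 ± 20.9, though near-identical tubulin copies may share reads. STEAP4 and STEAP1, metalloreductase family genes (chr7:88303369-88303869 and chr7:90157729-90158229, both inside), had 81.1 ± 10.2 against 0, and 69.6 ± 3.88 against 4.83 ± 8.36. TPD52, on chromosome 8, had 90.1 ± 0.581 at 0.06 nM and 21.1 ± 31.2 with vehicle. ELL2 (adjusted p = 0.611), STEAP4 (adjusted p = 0.189) and STEAP1 (adjusted p = 0.212) were not called without vehicle replicates 1 and 2. The region in IQGAP2 (chr5:76404215-76404715), at 57.8, 49.8 and 67.3 against 0 in each vehicle library, likewise had −9.28 points when an overlap of 1 bp was counted. The fall at NCAPD3, a condensin subunit gene (chr11:134157601-134158101, inside), had 16.6, 12.4 and 1.30 at 0.06 nM, against 83.7, 77.5 and 63.7. Leaving out any 0.06 nM library ended the calls at ELL2, STEAP4, STEAP1 and NCAPD3, 0.06 nM replicate 1 or 4 that at IQGAP2, and replicate 4 that at TUBA3D. Vehicle replicate 1 or 2 also ended those at ELL2 and NCAPD3, while LIFR and TPD52 kept theirs throughout.

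Several classic androgen genes had no called region, given here by their region of smallest p. In TMPRSS2, a serine protease gene with 37 tested regions (chr21:41501723-41502223), ranks were 87.9, 0 and 89.6 at 0.06 nM and 0 in each vehicle library (limma adjusted p = 0.156), and no summit lay within 250 bp of the centre in any of the 6. In its fusion partner ERG, with 68 tested regions (chr21:38376344-38376844), they were 57.5, 59.9 and 49.6, against 0, 0 and 14.5 (limma adjusted p = 0.125). Neither passed, though the ERG groups did not overlap. SLC45A3, a solute carrier of luminal cells (chr1:205680492-205680992), had 91.9, 95.1 and 90.1 at 0.06 nM and 82.6, 84.5 and 85.1 with vehicle (limma adjusted p = 0.345). STEAP2 (chr7:90213531-90214031) was at 36.9, 0 and 36.1 and not listed with vehicle (limma adjusted p = 0.202). PMEPA1, an inhibitor of TGF-beta signalling (chr20:57710681-57711181), was not listed at 0.06 nM and had 76.3, 87.2 and 88.2 with vehicle. Its difference of −83.9 points did not pass (SE 22.2, limma adjusted p = 0.0844) and was −17.4 by summit.

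**Figure D3:**
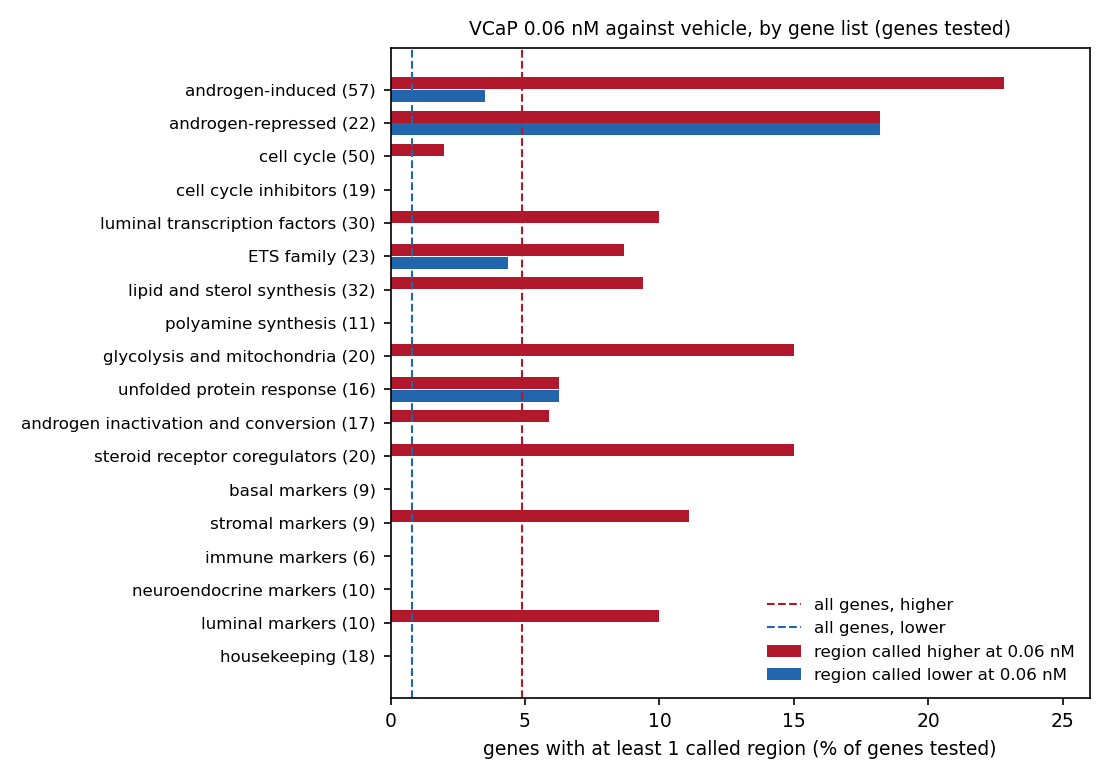
Percent of tested genes with at least 1 region called higher (red) or lower (blue) at 0.06 nM, for 18 gene lists with the number of genes tested in brackets. Dashed lines give all 17466 genes, 4.9% higher and 0.807% lower, and the androgen-induced list has the longest red bar at 22.8%. Shares are by gene and do not allow for how many tested regions each gene has.

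Genes known to be repressed by androgen had calls in both directions. Of the 22 tested, 4 had a rise (CDH2, DDC and PMP22 among them) and 4 a fall (CDH2, DDC, KIT and LRIG1), or 18.2% each way, beside 4.9% and 0.807% of all genes. Of the 381 regions tested at these genes, 7 (1.84%) were called higher and 4 lower, beside 0.936% and 0.164% of all tested regions. The median difference of the 381 was 0.24 points. Leaving out vehicle replicates 1 and 2 gave 3 genes higher, CDH2 and DDC among them, and 1 lower, DDC.

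DDC, which makes dopamine from its precursor, had a rise and a fall inside the gene. The rise (chr7:50508616-50509116) was 96.7, 95.1 and 94.7 at 0.06 nM, against 71.6, 82.2 and 69.8 (limma adjusted p = 0.00148). The fall (chr7:50489712-50490212) was not listed at 0.06 nM and had 43.6, 46.5 and 34.1 with vehicle (limma adjusted p = 0.00753). Without vehicle replicates 1 and 2 the differences were 25.7 and −34.1 points. The fall was listed in no library at 0.01, 0.03 or 10 nM, so it was tested through the vehicle libraries alone. Its vehicle pileups were 10, 6 and 11 fragments. Percentile 5 of the listed pileups was 13, 9 and 11 in the 0.06 nM libraries, so a peak of that size may go unlisted there. CDH2 encodes N-cadherin, an adhesion molecule of mesenchymal cells, and had 2 rises and 1 fall, the first rise 9.81 kb outside it (chr18:27922817-27923317) at 90.6, 85.9 and 91.8, against 59.5, 0 and 19.97. KIT, a receptor kinase gene, LRIG1, a feedback inhibitor of receptor kinases, and PMP22, a myelin protein gene, fall outside the naming rule and were named after their values were seen. KIT fell by 26.9 points and LRIG1 by 56.7, and PMP22 had a difference of 70.5. The KIT region ranked at 32.3, 28.4 and 19.97 with vehicle, on pileups of only 7, 5 and 9 fragments. As no library at 0.01, 0.03, 0.06 or 10 nM listed it, KIT too was tested through the vehicle libraries alone. By summit, LRIG1 (adjusted p = 0.0635), PMP22 (adjusted p = 0.0563) and the CDH2 fall (adjusted p = 0.0733) missed the threshold. Without vehicle replicates 1 and 2, KIT (adjusted p = 0.138), LRIG1 (adjusted p = 0.183), PMP22 (adjusted p = 0.301) and the CDH2 fall (adjusted p = 0.0976) were not called. The DDC rise kept its call when any library was left out. Calls were lost without 0.06 nM replicate 1 or 4 at the DDC fall and the first CDH2 rise, when any 1 of the 0.06 nM libraries was left out at KIT, any 1 of these or vehicle replicate 2 at LRIG1, and any 1 of the 6 libraries at PMP22.

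Of 30 luminal transcription factor genes, 3 (10%, beside 4.9% of all genes) had a rise, GATA3 and NFIB among them, and none a fall. By region, 6 of 517 (1.16%) were higher, beside 0.936% of all tested regions. The list had 3 genes higher and 1 lower without vehicle replicates 1 and 2, and of the original rises GATA3 alone was kept. GATA3, a pioneer factor of luminal epithelium, had 2 rises, 62.7 kb and 69.5 kb away. The first (chr10:8137688-8138188) was at 83.5, 80.8 and 85.5 at 0.06 nM and not listed with vehicle, and both remained called without vehicle replicates 1 and 2 (adjusted p = 0.0306 and 0.00118). In NFIB (chr9:14304166-14304666) the ranks were 58.5, 69.1 and 58.0, against 0 in each vehicle library. Of 23 ETS family genes, ETV5 and ETV6 had a rise (8.7%, beside 4.9% of all genes) and ETS1 a fall (4.35%, beside 0.807%). By region, 2 of 292 (0.685%) were higher and 1 lower, so the share higher was below the 0.936% of all tested regions. ETV5 (chr3:186117619-186118119, 8.78 kb away) was at 93.0, 86.3 and 85.3, against 51.0, 56.9 and 61.4 with vehicle (limma adjusted p = 0.0041). ETS1 (chr11:128388224-128388724, 70.3 kb away) was at 28.7, 35.6 and 13.0, against 86.4, 86.4 and 76.1 (limma adjusted p = 0.0263). None of these 3 ETS genes was called without vehicle replicates 1 and 2. Single omissions ended no call at ETV5 and the first GATA3 region, but did so without 0.06 nM replicate 1 or 4 at the second GATA3 region, ETV6 and ETS1, without vehicle replicate 1 or 2 at ETV6 and ETS1, without vehicle replicate 4 at ETV6, and when any 1 of the 6 was left out at NFIB. The oncogene MYC had a region 58.0 kb away on chromosome 8 at 91.0, 84.0 and 89.8, against 64.0, 36.6 and 77.0 (limma adjusted p = 0.0652, and 0.0455 by summit).

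Rises were called at 3 of 20 steroid receptor and coregulator genes (15%, beside 4.9% of all genes) and falls at none (beside 0.807%). By region, 3 of 244 (1.23%) were higher, beside 0.936% of all tested regions. The list turned without vehicle replicates 1 and 2, with 0 genes higher and 3 lower, beside 507 and 249 of all 17466 genes. At NCOA2, a coactivator of nuclear receptors on chromosome 8, ranks were 94.0, 96.7 and 96.3 at 0.06 nM, against 58.5, 79.0 and 77.4 (limma adjusted p = 0.0145). PGR, the progesterone receptor gene (chr11:101092960-101093460), had 52.2, 59.6 and 49.0 and was not listed with vehicle (limma adjusted p = 0.0459). The third, NR3C1, encodes the glucocorticoid receptor (chr5:143402759-143403259) and had 79.0, 79.9 and 81.9 against 0 in each vehicle library, but the summit-based difference was 0.30 points (adjusted p = 1). None of the 3 was called without vehicle replicates 1 and 2 or when a 0.06 nM library was left out, and PGR also lost its call when any 1 of the vehicle libraries was.

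Lipid and energy metabolism genes had rises, beside 4.9% of all genes. By region, the share higher was 0.946% for the lipid and sterol list, near the 0.936% of all tested regions. It was 2.56% for the glycolysis and mitochondria list, where neighbouring LDHA regions with the same values both count. Of 32 lipid and sterol synthesis genes, ACACA, SC5D and SREBF2 had a rise (9.38%) and none a fall. All 3 remained called without vehicle replicates 1 and 2, where the list had 5 genes higher and 0 lower. In ACACA, the enzyme that commits carbon to fatty acid synthesis (chr17:37315552-37316052), ranks were 84.6, 84.4 and 88.3 at 0.06 nM, against 10.4, 0 and 0. In SC5D, a late enzyme of cholesterol synthesis (chr11:121300276-121300776), they were 89.6, 88.7 and 86.4, against 36.9, 72 and 39.0. The region in SREBF2, a regulator of sterol synthesis genes (chr22:41833427-41833927), had 97.4, 97.6 and 97.5 against 0, 14.1 and 0, but 7.15 points and an adjusted p of 0.91 by summit. Of 20 glycolysis and mitochondria genes, LDHA, PPARGC1A and PPARGC1B had a rise (15%) and none a fall, but without vehicle replicates 1 and 2 the list had 1 gene higher and 2 lower. Near LDHA, lactate dehydrogenase A (chr11:18384149-18384649, 10.2 kb away), ranks were 91.7, 89.4 and 93.6, against 82.3, 67.6 and 71.2. PPARGC1B, a mitochondrial biogenesis coactivator (chr5:149791510-149792010), had 75.1, 58.1 and 71.7 and was not listed with vehicle, and PPARGC1A (chr4:24496571-24497071) had 65.1, 30.2 and 58.0, also against 0. LDHA was called without vehicle replicates 1 and 2 and the coactivator genes were not. Leaving out 0.06 nM replicate 1 or 4 ended the calls at SC5D, LDHA, PPARGC1B and PPARGC1A, 0.06 nM replicate 2 that at LDHA, and vehicle replicate 1 (PPARGC1B and PPARGC1A), 2 or 4 (LDHA and PPARGC1A) others.

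Few genes of the other growth and metabolism lists were called, beside 4.9% of all genes higher and 0.807% lower. The unfolded protein response list had 6.25% each way, which is 1 gene. Of 17 androgen inactivation and conversion genes UGT2B28 had a rise (5.88%), and none fell. UGT2B28, a glucuronidating enzyme, had its region 26.4 kb away (chr4:69321224-69321724) at 93.6, 93.5 and 94.1, against 64.4, 63.6 and 68.3 (difference 28.4, SE 2.90, limma adjusted p = 0.00018). It remained called without vehicle replicates 1 and 2 and with background pileup as a covariate. Its paralogs UGT2B15 (chr4:68621835-68622335, 6.16, 12.3 and 0, against 28.1, 70.3 and 17.6, limma adjusted p = 0.357) and UGT2B17 (chr4:68573351-68573851, 40.1, 0 and 0, against 70.5, 12.8 and 0, limma adjusted p = 0.798) did not pass, and reads from such near copies may be split between them. Of 50 cell cycle genes BIRC5 (survivin, chr17:78223059-78223559) had a rise (64.7, 70.6 and 61.2, against 20.4, 0 and 0), or 2% of the list. Of 16 unfolded protein response genes, SYVN1 had a rise that was not called by summit (adjusted p = 0.455), and a region 45.4 kb from EDEM1 (chr3:5265131-5265631) fell to 18.2, 0 and 28.5, against 84.0, 76.3 and 78.2 with vehicle. None of BIRC5, SYVN1 and EDEM1 was called without vehicle replicates 1 and 2. Leaving out any 1 of the 6 libraries, except vehicle replicate 1 for BIRC5, ended their calls. No gene was called among 19 cell cycle inhibitor and 11 polyamine synthesis genes (1 lower and 0 called without vehicle replicates 1 and 2), and the opioid receptor gene OPRK1 had 91.6, 83.2 and 85.4 against 86.1, 65.2 and 70.1 (limma adjusted p = 0.25).

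Markers of other cell types had 1 call, in the stromal list (11.1% of its tested genes higher, beside 4.9% of all genes). None of 9 basal, 6 immune or 10 neuroendocrine markers and none of 18 housekeeping genes had a called region. Among all genes 4.9% had a rise and 0.807% a fall, and lists this short can hold none at those shares. Of 9 stromal markers, COL1A2, a fibrillar collagen gene (chr7:94412311-94412811, inside), had a rise at 73.0, 74.3 and 63.5, against 0 in each vehicle library (limma adjusted p = 0.0178, and 0.177 without vehicle replicates 1 and 2). Leaving out any 0.06 nM library ended that call. Without vehicle replicates 1 and 2, 1 stromal marker was lower, and 1 housekeeping gene was higher and 1 lower.

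The values of the same regions in the other VCaP doses are given side by side, since all doses share the 3 vehicle libraries and the regions were chosen at 0.06 nM. At the 1165 rises the median of the group means was 8.35 with vehicle, 47.9 at 0.01 nM, 66.5 at 0.03 nM, 80.5 at 0.06 nM and 85.5 at 10 nM. A peak was listed in all 3 libraries at 10 nM for 1128 of them, and 8 were listed in no VCaP library outside 0.06 nM. At the 204 falls the medians were 55.0, 14.3, 5.07, 0 and 0 in the same order, and 156 were listed in no library at 10 nM. Of these falls, 20 were listed in no VCaP library outside vehicle, so they were tested through the vehicle libraries alone. Single regions differed in course. FKBP5 had means of 0.146 at 0.01 nM, 38.6 at 0.03 nM, 72.9 at 0.06 nM and 90.4 at 10 nM, and ILRUN 69.7, 90.5, 96.6 and 97.3. PPARGC1A had 1.5, 0, 51.1 and 19, with its highest mean at 0.06 nM. TRPM8 had 79.6, 88.4, 88.3 and 79.6.

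**Figure D4:**
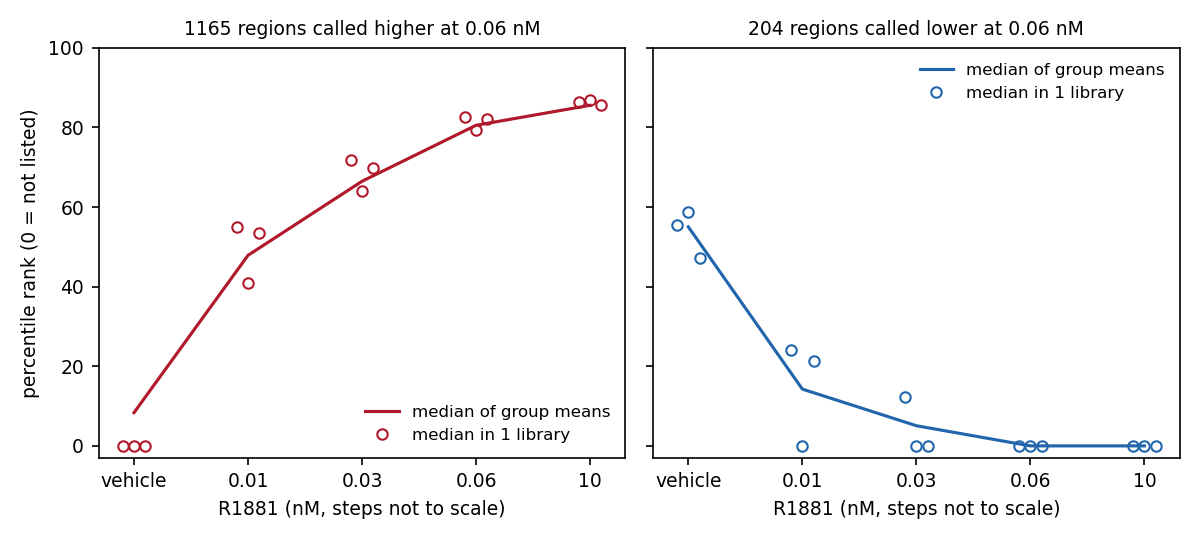
Median percentile rank in each VCaP library (circles) and median of the group means (line) by R1881 dose, at the regions called higher (left) and lower (right) at 0.06 nM. The dose axis is not to scale. The median of the rises is 8.35 with vehicle and 85.5 at 10 nM, and that of the falls is 55.0 and 0.

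LNCaP, another androgen-responsive prostate cancer line, was treated with 0.06 nM and vehicle in its own 3 libraries each (replicates 3, 4 and 5), grown in RPMI medium with stripped serum, so the lines share no sample and also differ in medium. At the 87966 regions that passed the filter in each line, LNCaP had 6024 higher (6.85%) and 652 lower (0.741%). All regions are centred on VCaP summits, so LNCaP sites without one are not counted. Of 1006 VCaP rises tested there, 555 were also called higher in LNCaP, which is 55.2% of them and 9.21% of LNCaP's rises at these regions. Of 130 VCaP falls, 13 were called lower in LNCaP (10% of them and 1.99% of LNCaP's falls at these regions), and no region was called in opposite directions. The median of the LNCaP group means was 60.3 at 0.06 nM and 0 with vehicle at the VCaP rises, and 32.2 and 53.7 at the VCaP falls. A further 109 rises and 41 falls were listed in no LNCaP library.

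The difference between the lines was tested as an interaction. It was more positive in VCaP at 315 regions (0.358%) and more negative at 589 (0.67%). Of the VCaP rises, 209 changed more in VCaP and 45 more in LNCaP, and of the VCaP falls 20 fell more in VCaP. The LLPH region rose by 93.6 points in VCaP and had 7.65 and 0 in LNCaP at 0.06 nM and vehicle (difference between lines 86.0, limma adjusted p = 0.00192). The GATA3 region at 62.7 kb had 10.9 and 0 in LNCaP (difference between lines 72.4, limma adjusted p = 0.00292), while the other GATA3 region had 82.5 and 8.80 there and its difference between lines did not pass (adjusted p = 0.901). COL1A2 was listed in neither LNCaP group (difference between lines 70.3, limma adjusted p = 0.0013). TRPM8 changed more in LNCaP, with 78.1 and 0 there (difference between lines −57.0, limma adjusted p = 1.99e-05). There the VCaP vehicle libraries already had a peak. Without VCaP vehicle replicates 1 and 2 the interaction was more positive at 169 regions and more negative at 263. Leaving out VCaP vehicle replicate 4 moved the first count to 601, and leaving out LNCaP 0.06 nM replicate 3, 4 or 5 moved it to 195, 188 or 205. Without LNCaP 0.06 nM replicate 3 or 4 the second count was 378 or 356.

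**Figure D5:**
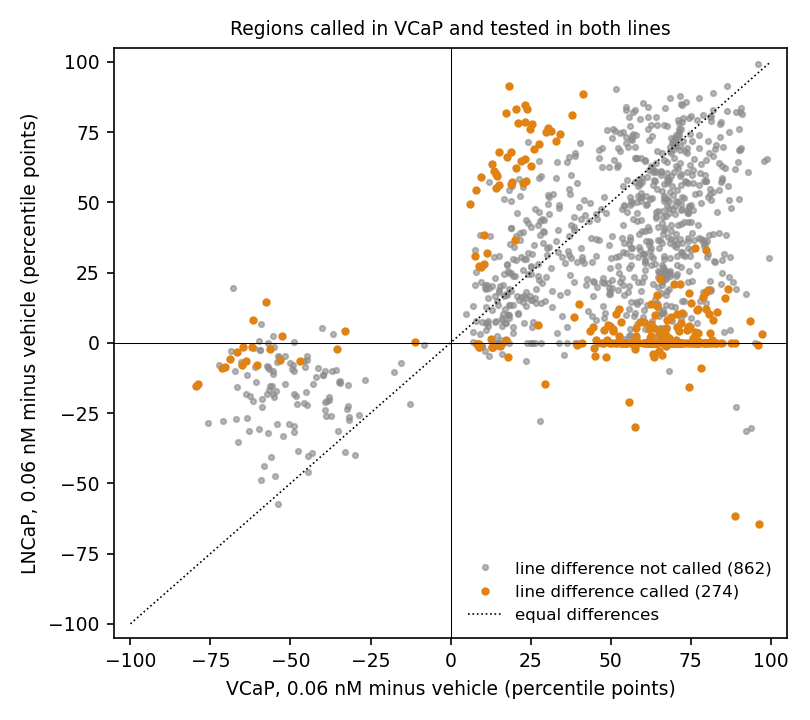
Difference in percentile rank, 0.06 nM minus vehicle, in VCaP (x axis) and LNCaP (y axis) at the 1136 regions called in VCaP and tested in both lines, with the 274 regions whose difference between lines was called in orange and the dotted line marking equal differences. Of the 1006 rises 838 lie above 0 in LNCaP, and of the 130 falls 118 lie below 0.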

How the data were processed

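Libraries were made by the Omni version of ATAC-seq with a Nextera kit, per the labels' protocols. Tools listed in the submitters' processing notes are MACS2 2.2.7.1, BWA 0.7.17, deepTools 3.5.1 and Trimmomatic 0.39, with the build GRCh38 (hg38). The authors deposited 1 peak list per library. Its score is 10 times the −log10 p, its signal value is a ratio (fold enrichment of the summit over local background), and it also gives each summit's −log10 p and −log10 q. The deposited summit offset in bp placed the windows.

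From these, lists were shortened to 104726 entries by −log10 p and ranked within each library at 501 bp windows, strongest summit first. Group means were fitted over all 15 VCaP libraries with limma 3.58.1 in R 4.3.3, with trend and robust moderation, two-sided, Benjamini-Hochberg over all regions tested. The line difference was an interaction over all 30 libraries. Summit pileup and background were solved from fold and p under a Poisson model and 100% of the pileups came within 0.05 of whole numbers; background pileup is percentile 1 of a library's backgrounds. The lists give no read counts, so depth is relative and no counting interval is given. Genes are the nearest protein-coding bodies within 100 kb, from 19974 RefSeq genes on GRCh38.p14, and distances are to the region's centre. The fit was tested on simulated data. No pair of VCaP libraries held identical values.

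Named regions are the 12 largest rises and 10 largest falls that were called, separated the groups and were also called by summit, 1 per gene; the region of smallest p of up to 12 androgen-induced genes and 3 genes of each other list; 17 fixed genes; and the 4 largest line differences each way, there also limited to regions near a gene, which departs from the rule as written. The region set, gene lists, tests and named genes were chosen with earlier results of these data known. Alternatives covered the libraries fitted, depth, overlap, ranking column, list length, filter and variance model. Some named regions are not reported here.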

Additional observations from a re-analysis of the deposited data

Results flagged for a closer look

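In all, 8 regions called in VCaP stood out because their change at 0.06 nM differed between VCaP and LNCaP, by limma's interaction test. They are the 4 largest each way among regions within 100 kb of a protein-coding gene, a limit that the naming rule for line differences did not state. The difference between lines, VCaP minus LNCaP, was 161 points at SLC50A1, a sugar transporter (chr1:155136207-155136707, adjusted p = 0.0136), and 151 at LPGAT1, a lipid acyltransferase (chr1:211829946-211830446, adjusted p = 0.00276). In LNCaP the means were 0 at 0.06 nM and 64.6 with vehicle at SLC50A1, and 0 and 61.7 at LPGAT1. The LNCaP vehicle ranks were 97.1, 96.7 and 0 at SLC50A1 and 92.1, 92.9 and 0 at LPGAT1. Neither LNCaP change was called (limma adjusted p = 0.366 and 0.21). VCaP had 96.5 and 89.0 at 0.06 nM and 0 with vehicle. The difference between lines was 94.0 at ZNF777 (chr7:149459834-149460334, adjusted p = 3.49e-07) and 96.9 at SEC23A, a vesicle coat gene (chr14:39102425-39102925, adjusted p = 0.0134). None of these 4 was called with a summit within 250 bp, and all lie within 1.08 kb of a gene end. Counting any overlap of 1 bp gave VCaP differences of −0.653 at SLC50A1 and −1.14 at SEC23A. LPGAT1 also lost its VCaP call with that overlap, while ZNF777 kept its call.

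The other 4 regions were called by summit in VCaP and more negative there than in LNCaP. The largest was at SLC36A1, an amino acid transporter (chr5:151414497-151414997), with −73.2 points (adjusted p = 4.16e-11). VCaP ranks there were 89.0, 89.9 and 86.3 at 0.06 nM and 65.6, 72.8 and 72.1 with vehicle, and the LNCaP means were 91.4 and 0. The others were −72.4 at UBL3 (chr13:29868561-29869061, adjusted p = 0.0404), −63.5 at C1orf53 (adjusted p = 0.0216) and −63.5 at NCAPD3 (adjusted p = 0.013), and all 3 fell in VCaP. Their LNCaP means at 0.06 nM and vehicle were 41.3 and 26.7 at UBL3, 81.7 and 84.9 at C1orf53, and 50.4 and 51.8 at NCAPD3. With no such gene nearby, 4 called regions had line differences between −69.9 and −64.1, larger in size than those at NCAPD3 and C1orf53. Without the limit, a region on chromosome 14 (chr14:25842395-25842895, −69.9, adjusted p = 0.0265) and one on chromosome 3 (chr3:117610006-117610506, −64.5, adjusted p = 7.74e-09) would stand in their place.

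Several of the VCaP calls depended on single libraries. SEC23A lost its call when any 1 of the 6 VCaP libraries was left out, UBL3 when any except vehicle replicate 2 was, NCAPD3 and C1orf53 when any except vehicle replicate 4 was, and SLC36A1 without 0.06 nM replicate 1. The chromosome 14 region lost its call when any except vehicle replicate 4 was left out. Without vehicle replicates 1 and 2 none of these 6 was called in VCaP, with an adjusted p of 0.376 at SEC23A, 0.272 at UBL3, 0.408 at NCAPD3, 0.382 at C1orf53, 0.077 at SLC36A1 and 0.347 at the chromosome 14 region. SLC50A1, LPGAT1, ZNF777 and the chromosome 3 region kept their calls under all of these omissions of libraries.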

How the results depend on the processing

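The counts of called regions moved with the setting, and the fit over all 15 VCaP libraries gave 1165 rises and 204 falls. Limma fitted to the 6 libraries alone called 0 and 0 (7622 and 4222 at an unadjusted p under 0.05), and with the replicate block added also 0 and 0 (8515 and 4582). With the replicate block over all 15 libraries it called 2238 and 474, holding 1164 of the 1165 rises and all 204 falls. The labels do not say what a shared number marks, and the fit used for the calls had no block. Same-number correlations of deviations between the groups were 0.105, 0.143 and 0.076, and those of other pairs ran from −0.097 to 0.014. Each library correlated best with its own number. Replicate 2 also had the narrowest peaks of every VCaP group (median 281 to 364 bp). A shared batch by number was not tested. Other counts of rises and falls were 682 and 309 without vehicle replicates 1 and 2, 151 and 2 with background pileup as a covariate, 696 and 115 with an overlap of 250 bp, 2460 and 63 with all entries as deposited, and 15 and 0 when −log10 q had to reach 5 (7641 and 292 at an unadjusted p under 0.05). They were 389 and 28 for ranks at regions listed in all 15 libraries, 1999 and 612 without trend or robust moderation, and 299 and 16 at regions listed in all 6 libraries, a setting chosen after seeing the data, as was the block on 6 libraries. Rises stayed within 1.5 times under the other settings, while falls were 434 with the 50000 strongest entries, 102 with a peak in at least 8 libraries, 70 with no filter and 316 for pileups at regions listed in all 15. Similar counts need not mean the same regions. Of the 1165 rises, 729 were also called with the 50000 strongest entries and 351 for pileups at regions listed in all 15. Of the 204 falls, 40 and 13 were. These settings tested 71306 and 33763 regions, so some regions could not be called there. An overlap of 1 bp kept more, 1092 of the rises and 168 of the falls. Leaving out each library in turn gave 238 to 1420 rises and 10 to 629 falls. Without vehicle replicates 1 and 2, which leaves vehicle replicate 4 alone, most of the falls called were not among the 204. Most of the 1165 rises were not called in that setting. The cause of these shifts in counts and regions was not tested.

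The line difference, 315 more positive and 589 more negative in VCaP, was 481 and 871 with the replicate block, 169 and 263 without VCaP vehicle replicates 1 and 2, and 261 and 235 with the 12 libraries alone. Leaving out each of the 12 libraries gave 188 to 601 and 356 to 718. Of the regions named, direction reversed with an overlap of 1 bp at SLC50A1 (−0.653 points), IQGAP2 (−9.28), ZBTB16 (−1.96) and SEC23A (−1.14), with a summit within 250 bp at 1 of the LDHA regions (chr11:18383581-18384081, −7.46), while its neighbour (chr11:18384149-18384649) had 17.9, and by fold enrichment at KLK2 (−6.18). At UGT2B17, which was not called, the difference of −14.4 became 13.4 without vehicle replicates 1 and 2 and ran between −28.3 and 6.98 with single libraries left out. Of the 77 called regions named, 24 kept their call whichever library was left out. Depth is known only as relative pileup, so a peak below the end of a list, in either group, cannot be told apart from a closed site.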
